A study of Homo sapiens with 12 samples.

Results

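The fibroblast growth factor (FGF) receptors FGFR1, FGFR2, FGFR3 and FGFR4 were followed in Rh30 cells with and without knockdown of PAX3-FKHR, the fusion transcription factor of alveolar rhabdomyosarcoma that is also named PAX3-FOXO1. They are 4 of 30238 gene names in the scanner files, and all gene probes that carry one of these symbols were taken, 12 of 41000: 6 for FGFR1, 3 for FGFR2, 2 for FGFR3 and 1 for FGFR4. Probes were taken by their symbol alone. Parental Rh30 cells (WT), a control clone (CON) and a knockdown clone (KD1) were compared pairwise on 12 two-color Agilent whole human genome arrays. WT was not transfected and was grown without puromycin. CON carried a retroviral vector with a short hairpin RNA without a target in the cells, and KD1 carried the same vector with a hairpin against PAX3-FKHR. Both received puromycin at 1 μg/mL during growth, and each is a single clone, so that the hairpin and differences between clones cannot be told apart. Between WT and the clones, the vector, puromycin and cloning cannot be told apart either. All 3 cultures are the same human alveolar rhabdomyosarcoma line, grown in medium with 10% fetal bovine serum and harvested 24 h after plating. There were 2 RNA extracts per culture, each on 4 arrays, and every comparison (WT vs CON, KD1 vs CON, KD1 vs WT) had 2 replicates with a dye-swap pair each. What separates the 2 extracts of a culture is given only as biological replication, and p-values measure the spread between these extracts.

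FGF receptors are receptor tyrosine kinases of the cell surface. An FGF ligand, held by heparan sulfate chains, brings receptors together, the kinase domains phosphorylate each other, and the adaptor FRS2 passes the signal to RAS and PI3K. FGFR1 and FGFR4 are the receptors best known in muscle precursor cells, and FGFR4 is known as a transcriptional target of PAX3-FKHR and as an oncogene in rhabdomyosarcoma, while FGFR3 is best known for its role in cartilage and in bladder tumors and FGFR2 for its role in epithelia.

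The only FGFR4 probe on the array, A_23_P92754, is shown because it carries all FGFR4 values. It lies on the plus strand at chr5:176455727-176455786 of build NCBI36, in the part of the gene that encodes the kinase domain. The capitals mark the codons of the DFG motif, with which the activation loop of the kinase starts, and those of the paired tyrosines that are phosphorylated on activation.
FGFR4 probe A_23_P92754: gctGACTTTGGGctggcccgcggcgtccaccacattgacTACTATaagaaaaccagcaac
The brightest FGFR1 probe, A_23_P219105, covers the same stretch of its own gene, and 39 of 51 aligned bases (76.5%) are identical between these probes.

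The promoters of FGFR3 and FGFR4 are shown because these genes gave the called receptor and the known target of the fusion. They were taken from RefSeq (GRCh38.p14), each from 250 bases before to 50 bases after a start site. The table holds 1 promoter for FGFR3, 2 for FGFR4, 5 for FGFR2 and 0 for FGFR1. The letters GGGCGG (GC box, both strands) and CANNTG (E box, the core bound by muscle regulators such as MYOD1, which reads alike on both strands, with overlapping matches counted) were searched in 35116 promoters. Capitals mark GC boxes in the FGFR3 promoter and in the upstream FGFR4 promoter, and E boxes in the downstream one.
FGFR3, chr4:1793043-1793342, plus strand: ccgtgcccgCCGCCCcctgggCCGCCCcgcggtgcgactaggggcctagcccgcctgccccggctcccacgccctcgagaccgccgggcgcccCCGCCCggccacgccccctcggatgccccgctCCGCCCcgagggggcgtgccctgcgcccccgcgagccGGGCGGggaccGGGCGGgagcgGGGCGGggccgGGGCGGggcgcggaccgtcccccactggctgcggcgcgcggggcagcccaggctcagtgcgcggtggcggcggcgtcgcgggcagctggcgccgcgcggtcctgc
FGFR4, upstream start, chr5:177086665-177086964, plus strand: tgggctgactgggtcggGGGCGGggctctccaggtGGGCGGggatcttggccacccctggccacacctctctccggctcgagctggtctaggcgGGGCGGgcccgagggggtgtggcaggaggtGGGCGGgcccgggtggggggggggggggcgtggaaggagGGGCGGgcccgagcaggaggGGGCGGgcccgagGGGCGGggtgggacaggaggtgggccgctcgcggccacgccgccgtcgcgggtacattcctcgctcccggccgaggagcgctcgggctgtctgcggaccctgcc
FGFR4, downstream start, chr5:177089300-177089599, plus strand: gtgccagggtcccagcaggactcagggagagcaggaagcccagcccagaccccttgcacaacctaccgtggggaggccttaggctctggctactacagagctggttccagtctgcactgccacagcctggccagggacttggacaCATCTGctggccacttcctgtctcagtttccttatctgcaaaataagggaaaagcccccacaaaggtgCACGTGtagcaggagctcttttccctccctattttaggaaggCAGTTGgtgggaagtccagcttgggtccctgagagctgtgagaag
The FGFR3 promoter is 86.3% G and C, against a median of 58.7% over all promoters, and holds 8 GC boxes, a number reached by 0.812% of promoters. The upstream FGFR4 promoter is 78.7% G and C with 7 GC boxes (at least as many in 1.50% of promoters). The downstream one is 57.3% G and C and holds 0 GC boxes and 3 E boxes, a number reached by 15.3% of promoters. The homeodomain core ATTA, which the authors give as part of the composite binding site of PAX3-FKHR, was searched as well. It occurred 0 times in the FGFR3 promoter and in both FGFR4 promoters, and 50.2% of all promoters held it. These matches describe letters in a window and are not measured binding sites, and the arrays do not tell which start site was used.

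A ratio is given on the log2 scale with the first culture of a comparison over the second. A signal is the linear normalized intensity of a probe in one extract, averaged over its 4 arrays, and is compared only between cultures for the same probe. The share of spots well above background was 71.1% to 73.6% in Cy3 and 64.4% to 67.8% in Cy5. Each culture had only 2 extracts, which limits precision. The 2 arrays of a dye-swap pair correlated across 21870 probes with 0.840 to 0.888 in 5 of the 6 pairs and with 0.448 in replicate 2 of KD1 vs WT, so that values of this pair are also given as the difference of the other 2 comparisons. The WT extract of replicate 2 stood apart in another way. EPCAM, a surface protein of epithelial cells, had a signal of 164 in it, well above background on 4 of 4 arrays, against 3.41 to 3.93 in the other 5 extracts. Muscle genes marked all 3 cultures. The muscle regulators MYOD1, MYOG and MYF5, the filament protein DES and the acetylcholine receptor subunit CHRNA1 were well above background in all 8 readings of each culture, while PTPRC of blood cells and ALB of liver were well above background in 0. PECAM1, known from endothelium, was well above background in all 8 as well, with signals of 628 to 1048. Of these muscle genes MYOG alone was called, lower in WT than in CON (mean −1.81, adjusted p = 0.0176 by limma).

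Of the 12 receptor probes, 7 passed the signal filter in all 3 comparisons: 5 of FGFR1, 1 of FGFR3 and the 1 of FGFR4. One FGFR2 probe passed it in WT vs CON only, and the other 4 probes were not tested. To pass, a probe had to be brighter, after background subtraction, than the 99th percentile of the negative controls on every array of the comparison, in one channel or both. In limma with Benjamini-Hochberg adjustment over all probes tested, called at an adjusted p under 0.05, FGFR3 was the only receptor called. In WT vs CON, 1 of 8 receptor probes was called, against 1.37% of all 26595 probes tested. In KD1 vs WT, 1 of 7 was called, against 1.05% of 24884. At an unadjusted p under 0.05 there were 1 of 8 and 3 of 7 in these comparisons, against 16.5% and 17.2% of all probes. In KD1 vs CON, 0 of 7 were called, against 1.79% of 21937, and 2 of 7 had an unadjusted p under 0.05, both of FGFR1, against 17.2% of all probes. In a limma fit to the 12 single arrays with a dye effect per slide, which counts dye swaps as separate values, 3 of 7 receptor probes and 3944 probes in all were called in KD1 vs CON. The means of all 7 probes were below 0 in both KD1 comparisons, which share the KD1 extracts. Of all probes, 52% had a mean below 0 against CON and 49.3% against WT.

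**Figure D1:**
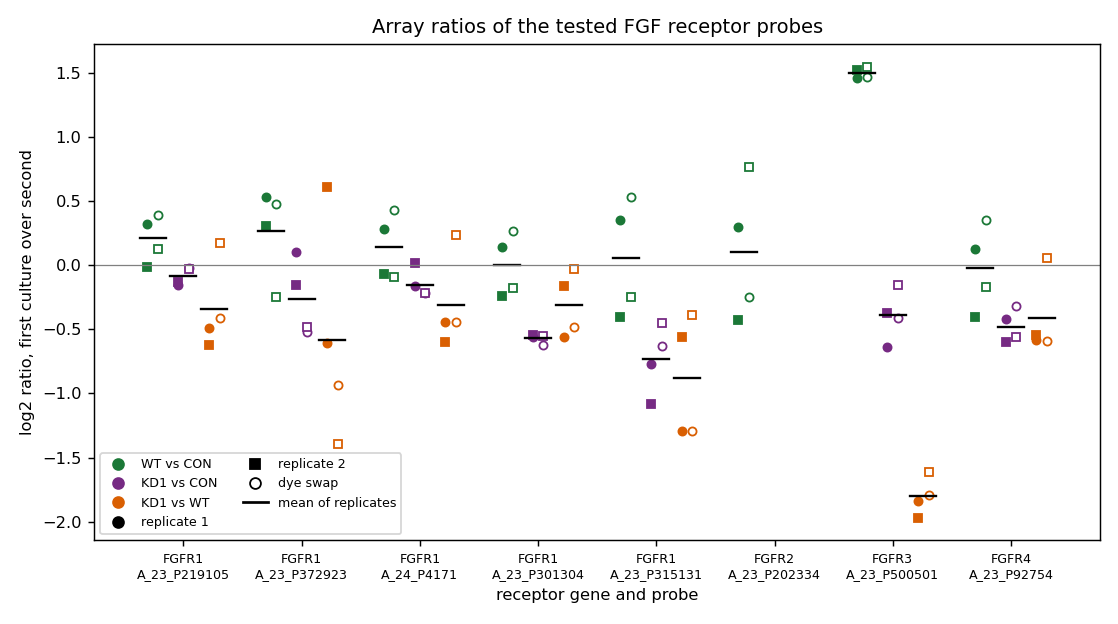
Log2 ratio on each array (y axis) for the 8 receptor probes that passed the filter in at least 1 comparison (x axis), with circles for replicate 1, squares for replicate 2, open symbols for dye swaps and a line at the mean of the 2 replicates. The 4 WT vs CON arrays of FGFR3 lie together near the mean of 1.50 and its 4 KD1 vs WT arrays near −1.80, while FGFR4 and the FGFR1 probes have means between −0.88 and 0.27.

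FGFR4 had the largest signals of its probe in WT 1 and in CON, and the lowest in KD1. The FGFR4 signal was 8222 and 5779 in the WT extracts, 7081 and 7006 in the CON extracts and 5323 and 5012 in the KD1 extracts. Both KD1 extracts were below both CON and both WT extracts, but WT 2 was closer to KD1 than to WT 1. On the KD1 vs CON arrays the log2 ratios were −0.42 and −0.32 in replicate 1 and −0.60 and −0.56 in replicate 2. Their mean of −0.48 ± 0.15 (SD, n = 2) is a signal 1.39-fold lower in KD1 and did not pass the threshold (adjusted p = 0.305 by limma, 95% interval −0.97 to 0.02). Of all probes tested in KD1 vs CON, 11% had a mean ratio at least as low.

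On the KD1 vs WT arrays FGFR4 had ratios of −0.58 and −0.59 in replicate 1 and of −0.54 and 0.06 in replicate 2, the pair with the low correlation. The mean was −0.41 ± 0.24 (SD, n = 2; adjusted p = 0.384 by limma, 95% interval −0.92 to 0.10), and 14.8% of all probes had a mean at least as low. With replicate 2 taken from the other comparisons, as KD1 vs CON minus WT vs CON, its value was −0.30 in place of −0.24 and the mean became −0.44 (adjusted p = 0.359). The ratios in WT vs CON were 0.13 and 0.35 in replicate 1 and −0.40 and −0.17 in replicate 2, so that the replicates lay on opposite sides of 0. Their mean was −0.02 ± 0.37 (SD, n = 2; adjusted p = 0.973 by limma, 95% interval −0.54 to 0.49). The brightest probes of PAX3 and FOXO1, the partner genes of the fusion, were not called in KD1 vs CON either (adjusted p = 0.326 and 0.432 by limma). Their replicates were −0.39 and −0.46 (PAX3) and −0.26 and −0.58 (FOXO1). Whether these probes lie in the parts kept in the fusion was not checked, and they can also measure the unrearranged genes.

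FGFR3 was higher in WT than in both clones, which differ from WT in vector, puromycin and cloning together. The signal of the brighter FGFR3 probe, A_23_P500501 (chr4:1780161-1780220, NCBI36, plus strand), was 592 and 585 in the WT extracts, 214 and 194 in the CON extracts and 157 and 166 in the KD1 extracts. The lowest reading of a WT extract on a single array was 545, and the highest reading of a clone was 222, so that the WT readings did not overlap those of the clones. The WT vs CON arrays gave 1.46 and 1.47 in replicate 1 and 1.52 and 1.55 in replicate 2, a mean of 1.50 ± 0.06 (SD, n = 2). WT was thus 2.83-fold higher than CON (95% interval 2.04 to 3.92, adjusted p = 0.0201 by limma). The KD1 vs WT arrays gave −1.84 and −1.79 in replicate 1 and −1.97 and −1.61 in replicate 2, a mean of −1.80 ± 0.02 (SD, n = 2). KD1 was 3.48-fold lower than WT (95% interval 2.53 to 4.79, adjusted p = 0.0100 by limma). With replicate 2 derived from the other comparisons the mean was −1.81 (adjusted p = 0.0190).

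Between the clones, the 4 KD1 vs CON arrays of FGFR3 gave −0.64, −0.41, −0.37 and −0.15. All 4 were below 0, but the mean of −0.39 ± 0.19 (SD, n = 2) did not pass the threshold (adjusted p = 0.350 by limma, 95% interval −0.84 to 0.05). The order of the FGFR3 levels was therefore WT above CON and KD1, with CON and KD1 not told apart by this test. Both calls on WT were lost after normexp background correction and loess, where the means were 1.06 (adjusted p = 0.110) and −1.23 (adjusted p = 0.0910), and the WT vs CON call was lost with separate channels and a replicate block (1.53, adjusted p = 0.0512). The direction was the same in these fits.

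The dimmer FGFR3 probe, A_23_P212830 (chr4:1778852-1778911), did not pass the filter and was not tested. It was well above background in 7 of 8 WT readings, 4 of 8 CON readings and 4 of 8 KD1 readings. Its signals were 28 and 25.1 in WT, 11.6 and 13.9 in CON and 15.5 and 13.0 in KD1, so that both WT extracts were above all 4 clone extracts with this probe too.

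Of the epithelial genes read, KRT18 alone had both WT extracts above all clone extracts, as FGFR3 did. The part of epithelial genes in the FGFR3 result was not tested. The epithelial genes were 9, EPCAM and 8 others added after EPCAM was seen. Their summed signal was 2794 and 3816 in WT, 1848 and 2064 in CON and 2048 and 2516 in KD1. Most of it came from the bright probes of the keratins KRT8 and KRT18. Signals of different probes are not on one scale, so the sum is not a measure of epithelial content. Of the 9 genes, 5 were tested in WT vs CON and 4 in each KD1 comparison. CLDN4 alone was called, in WT vs CON and KD1 vs CON. KRT18 had WT vs CON replicates of 0.95 and 0.91 (adjusted p = 0.0818 by limma) and KD1 vs WT replicates of −1.02 and −1.26 (adjusted p = 0.0521), so that both WT extracts were above the clones, as with FGFR3. The tight junction protein CLDN4 had WT vs CON replicates of 2.12 and 1.65 (adjusted p = 0.0380 by limma), but its mean in KD1 vs WT was 0.44. KRT8, ESRP1 and ESRP2 had WT vs CON means of 0.14, 0.00 and 0.04, and ELF3 had −0.48. EPCAM, CDH1 and KRT19 were high in WT 2 alone, with signals of 164, 18.1 and 442 there, beside 3.92, 3.44 and 26.1 in WT 1.

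**Figure D2:**
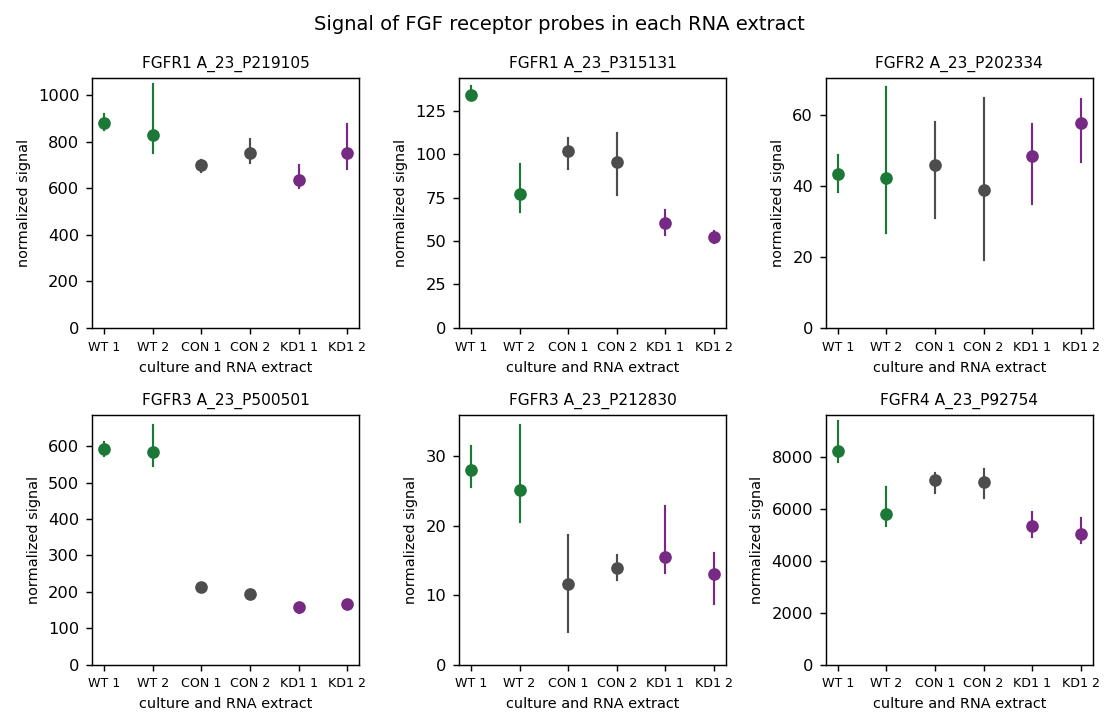
Normalized signal (linear, y axis from 0) of 6 receptor probes in each of the 6 RNA extracts (x axis), with points at the mean of 4 arrays and bars from the lowest to the highest array. Both FGFR3 probes are highest in the 2 WT extracts, FGFR4 and the FGFR1 probe A_23_P315131 are lowest in the 2 KD1 extracts, and the FGFR2 bars overlap between all cultures.

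FGFR1 was measured by 5 probes that were well above background in all 8 readings of each culture, and the probes did not give one pattern. All 6 FGFR1 probes lie on chromosome 8, minus strand. The brightest, A_23_P219105, had signals of 881 and 831 in WT, 701 and 751 in CON and 636 and 750 in KD1. WT was highest in both extracts, and CON and KD1 overlapped. Its mean ratios were 0.21 ± 0.21 (SD, n = 2) in WT vs CON, −0.08 ± 0.01 for KD1 over CON and −0.34 ± 0.16 for KD1 over WT. The adjusted p lay between 0.436 and 0.889 by limma. Probe A_24_P4171 followed the same order, with 491 and 475 in WT, 412 and 452 in CON and 368 and 438 in KD1, and mean ratios of 0.14, −0.15 and −0.31. Over the 6 extracts these probes correlated with r = 0.98.

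The FGFR1 probe with the lowest KD1 ratios was A_23_P315131, which was designed on the cDNA clone AK024388 and not on a RefSeq transcript of FGFR1. Its signals were 134 and 76.8 in WT, 102 and 95.4 in CON and 60.3 and 52.3 in KD1, with both KD1 extracts below all others. The KD1 vs CON arrays gave −0.77, −0.63, −1.08 and −0.45, a mean of −0.73 ± 0.05 (SD, n = 2; adjusted p = 0.202 by limma, 95% interval −1.32 to −0.14). The mean in KD1 vs WT was −0.88 ± 0.58 (adjusted p = 0.158 by limma), with −1.29 in replicate 1 and −0.47 in replicate 2. Probe A_23_P301304 gave −0.56, −0.62, −0.54 and −0.55 on the KD1 vs CON arrays, a mean of −0.57 ± 0.03 (adjusted p = 0.223 by limma), and −0.31 ± 0.30 in KD1 vs WT (adjusted p = 0.502). Probe A_23_P372923, on a transcript other than that of A_23_P219105, gave −0.26 ± 0.07 and −0.58 ± 0.27 in these comparisons. Its 2 arrays of KD1 vs WT replicate 2 gave 0.61 and −1.39, on opposite sides of 0. With both of these probes the KD1 extracts were again below all others. A_23_P301304 had 66.2 and 82.2 in KD1, 95.9 and 106 in WT and 95.7 and 122 in CON. A_23_P372923 had 595 and 580 in KD1, 989 and 750 in WT and 691 and 820 in CON. The sixth FGFR1 probe, A_23_P316447, was well above background in 0 of 24 readings, with signals of 3.53 to 4.90.

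FGFR2 gave low signals. Probe A_23_P202334, of which the files place 14 of 60 bases on chromosome 10, had signals of 43.4 and 42.2 in WT, 46 and 39 in CON and 48.5 and 57.9 in KD1, and was well above background in 7, 7 and 8 of 8 readings. Its ratios in WT vs CON, the only comparison in which it passed the filter, were 0.30, −0.25, −0.43 and 0.77, a mean of 0.10 ± 0.10 (SD, n = 2; adjusted p = 0.858 by limma, 95% interval −0.37 to 0.57). Both dye-swap pairs lay on opposite sides of 0. The other FGFR2 probes, A_24_P206624 and A_23_P303149, were well above background in 0 of 24 readings each. FGFR2 was not tested in the KD1 comparisons.

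For the 7 probes that passed in all comparisons, the genes with the most similar levels over the 6 extracts were taken from 15718 genes, each by its brightest probe. With 6 points from shared arrays, between 145 and 299 genes had r of at least 0.9 with a probe, so r is a description. The genes nearest to FGFR3 were PTHLH, a hormone-like peptide of cartilage and other tissues (r = 0.992), EXOC3L1 (0.991), BBS7 (0.991), TTYH3 (0.990) and the unnamed probe A_32_P27327 (0.989). PTHLH had mean ratios of 1.68 for WT over CON, −0.57 for KD1 over CON and −2.07 for KD1 over WT, beside 1.50, −0.39 and −1.80 for FGFR3. The genes nearest to FGFR4 were TXNDC11 (0.997), INTS10 (0.995), DPP8 (0.988), PPFIA1 (0.988) and SLC2A13 (0.985).

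FGFR4 was itself among the 5 genes nearest to the FGFR1 probe A_23_P315131 (r = 0.991), with LOC100129196 (0.996), TXNDC11 (0.993), E4F1 (0.990) and A_32_P186865 (0.989). This FGFR1 probe correlated with r of only 0.53 with A_23_P219105 and with A_24_P4171. The genes nearest to A_23_P219105 were SLC8A1 (0.986), OCLN (0.986), NTN1 (0.986), ROBO1 (0.983) and NPTN (0.980). Those nearest to the other FGFR1 probes were led by MORC2 (0.9995, for A_24_P4171), EXTL3 (0.993, for A_23_P372923) and FAM13A (0.989, for A_23_P301304). EXTL3 takes part in heparan sulfate synthesis and belongs to a list described below.

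The genes on either side of the receptors were compared with them, as the 5 measured genes nearest on each side. Of these 40 genes, 0 were called in any comparison by limma. The share of all probes called was 1.05% to 1.79% per comparison, so 0 calls do not set these genes apart. Around FGFR3 the mean ratios of the 10 neighbors were between −0.38 and 0.31 for WT over CON (median 0.09) and between −0.38 and 0.36 for KD1 over WT (median 0.04), beside 1.50 and −1.80 for FGFR3. LETM1, whose probe starts 4.55 kb from that of FGFR3, had 0.31 for WT over CON and −0.05 for KD1 over WT. Around FGFR4 the neighbors had a median of −0.01 in KD1 vs CON, from −0.24 to 0.49, beside −0.48 for FGFR4. In KD1 vs WT, however, the lowest neighbor of FGFR4 had −0.48, below the −0.41 of FGFR4. Around FGFR1, 9 of 10 neighbors had means below 0 in each KD1 comparison, with medians of −0.18 and −0.40, beside −0.08 and −0.34 for A_23_P219105.

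**Figure D3:**
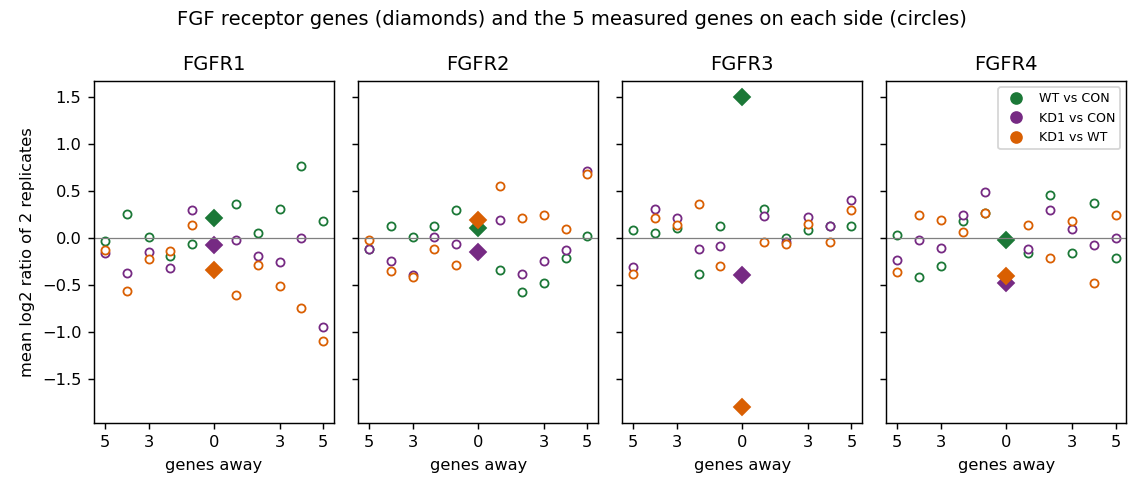
Mean log2 ratio of 2 replicates (y axis) for the brightest probe of each receptor gene (diamonds) and for the 5 measured genes on each side, in order of position (x axis, genes away). FGFR3 stands outside the range of its neighbors in all 3 comparisons, by little in KD1 vs CON (−0.39 beside a lowest of −0.31), and FGFR1 lies within the range of its neighbors in all 3 comparisons. FGFR2 was tested in WT vs CON only.

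Ligands and the proteins that work with the receptors were read from lists of 84 genes, of which 83 had a probe, each gene by its brightest probe. Among 22 genes listed as FGF ligands, 10 were well above background in 0 of 24 readings. The list also holds FGF11, FGF12, FGF13 and FGF14, which stay inside the cell and are not classed as receptor ligands. Of the 22 genes, 6 were tested in KD1 vs CON and 7 in each other comparison, and 0 were called by limma. At an unadjusted p under 0.05 there were 5 values, 3 of 7 in WT vs CON and 2 of 7 in KD1 vs WT. The shares of all probes were 16.5% and 17.2% in these comparisons. FGF13 was among these values in both comparisons (unadjusted p = 0.00231 and 0.0153 by limma). FGF1, a ligand of all 4 receptors, was the ligand with mean ratios of at least 1 in both KD1 comparisons. Its signal was 80.9 and 247 in WT, 786 and 92.9 in CON and 1397 and 307 in KD1. KD1 was above the other cultures within each replicate, but the extracts of a culture also differed widely from each other. The KD1 vs CON replicates were 0.77 and 1.69 (adjusted p = 0.572 by limma), those of KD1 vs WT 4.10 and 0.35 (adjusted p = 0.295), and those of WT vs CON −3.31 and 1.42.

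Of 10 co-receptors, decoy receptors and binding proteins, 2 were called in 1 comparison each. For KD1 over WT, 5 were tested and FLRT3 was called, against 1.05% of all probes. For WT over CON, 4 were tested and FGFBP2 was called, against 1.37%. For KD1 over CON, 4 were tested and 0 were called, against 1.79%. Neither FLRT3 nor FGFBP2 was called with normexp, with separate channels or with 3 residual degrees of freedom in place of 2. FGFBP2 was also lost with no filter and with the derived replicate 2 of KD1 vs WT. With normexp the means were 0.38 for FLRT3 (KD1 over WT, adjusted p = 0.246) and 0.62 for FGFBP2 (WT over CON, adjusted p = 0.156). FLRT3, a membrane protein that binds FGF receptors and adjusts their signaling, was higher in KD1 than in WT. FLRT3 had signals of 67.5 and 35.7 in KD1, 17.2 and 5.03 in WT and 7.39 and 5.18 in CON, and the KD1 vs WT arrays gave 2.14, 2.35, 2.30 and 3.64. The mean in KD1 vs WT was 2.61 ± 0.51 (SD, n = 2; adjusted p = 0.0190 by limma). FLRT3 was well above background in all 8 KD1 readings but in 3 of 8 WT readings, so that it passed the filter through KD1 and the size of the difference rests on a dim WT signal. In KD1 vs CON it did not pass the signal filter and was not tested, with measured ratios of 3.05 and 2.53 in the replicates. FLRT3 was not well above background in any of the 8 CON readings, and against the background limit KD1 was at least 3.22-fold higher than CON, by normalized means per channel. FGFBP2, named as an FGF-binding protein, was higher in WT than in CON, with replicates of 1.33 and 2.46 and a mean of 1.90 ± 0.80 (SD, n = 2; adjusted p = 0.0326 by limma). In KD1 vs CON it had 0.99 and 1.36 (adjusted p = 0.0974), with 4 of 4 arrays above 0. FGFRL1, a receptor-like protein without a kinase domain, had means of −0.29 and −0.35 in the KD1 comparisons (adjusted p = 0.498 and 0.422).

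Of 12 genes of heparan sulfate synthesis and editing, 11 were tested and 1 was called, in KD1 vs CON, against 1.79% of all probes. SULF2, a sulfatase that removes sulfate groups from heparan sulfate outside the cell, was lower in KD1 than in CON. SULF2 had signals of 33.9 and 27.4 in KD1, 353 and 214 in WT and 196 and 1116 in CON, so that both KD1 extracts were below the other 4. The KD1 vs CON arrays gave −2.74, −2.43, −5.20 and −5.32, a mean of −3.92 ± 1.89 (SD, n = 2), or 15.2-fold lower (95% interval 5.25 to 43.8, adjusted p = 0.0351 by limma). The call was lost with normexp, median centring, separate channels, 3 residual degrees of freedom, no filter, and the derived replicate 2 of KD1 vs WT, and with normexp the mean was −1.45 (adjusted p = 0.215). In KD1 vs WT the arrays gave −3.36, −3.43, −3.16 and −2.89, a mean of −3.21 ± 0.26 that did not pass the threshold (adjusted p = 0.0807). The median over the 11 genes was −0.21 for KD1 over CON and −0.33 for KD1 over WT, beside −0.01 and 0.01 over all probes tested, and 10 of 11 genes had a mean below 0 in KD1 vs WT.

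Proteins that carry the receptor signal differed little between the cultures. Of 23 such genes, among them FRS2, GRB2 and AKT1, 20 were tested in KD1 vs CON and 23 in each other comparison. Among them 0 were called by limma, 4 values had an unadjusted p under 0.05 (1 of 20 in KD1 vs CON, 3 of 23 in KD1 vs WT and 0 of 23 in WT vs CON, against 17.2%, 17.2% and 16.5% of all probes), and all means lay between −0.49 and 0.77. FRS2, the adaptor of the receptors, had KD1 vs WT replicates of 0.11 and −0.35.

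Genes that report or restrain FGF signaling also gave 0 calls by limma among 16 tested, of 17 listed. At an unadjusted p under 0.05 there were 8 for KD1 over CON, 6 for KD1 over WT and 7 for WT over CON, of 16 in each, against 17.2%, 17.2% and 16.5% of all probes. The median was 0.34 for KD1 over CON, with 11 of 16 means above 0, and 0.17 for KD1 over WT, with 9 above 0, beside medians of −0.01 and 0.01 over all probes. The members did not share one direction. In KD1 vs CON the phosphatase DUSP6 had replicates of 0.51 and 1.42 and the inhibitor SPRY2 had 0.78 and 0.69, while SPRY1 had −0.88 and −0.64 and the cyclin CCND1 −1.30 and −1.28. The fit to single arrays with a dye effect per slide counts dye swaps as separate values. In it 12 of the 16 genes were called in at least 1 comparison. That fit called 3944 (KD1 vs CON), 4204 (KD1 vs WT) and 4265 (WT vs CON) probes in all, beside 393, 261 and 365 in the reported fit. The share of all probes called in at least 1 comparison was not computed, so the 12 of 16 has no share beside it. DUSP6, SPRY1, SPRY2 and CCND1 were chosen after their values were seen.

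**Figure D4:**
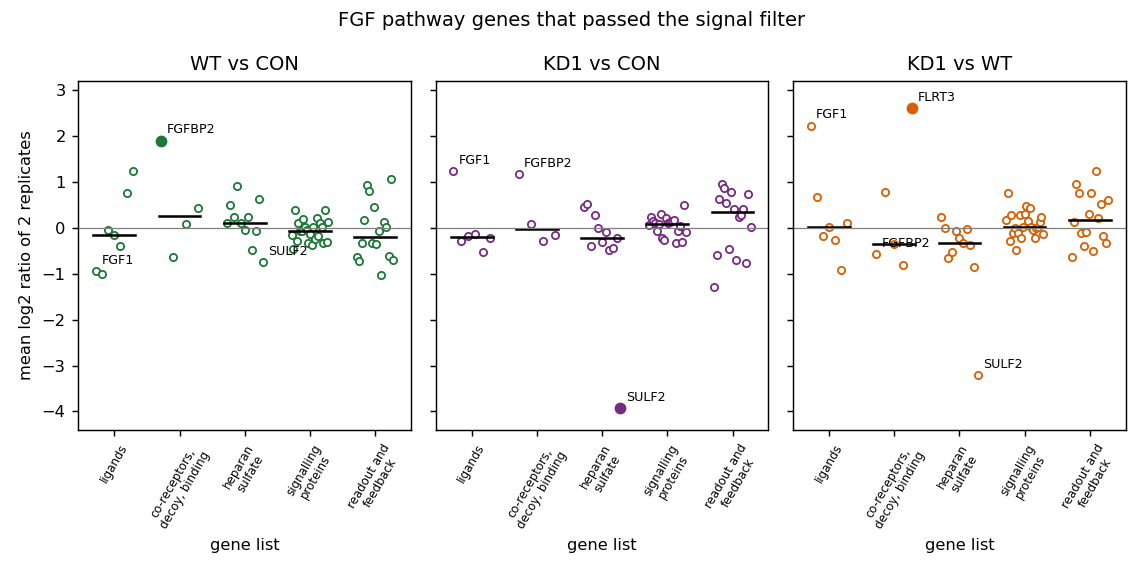
Mean log2 ratio of 2 replicates (y axis) of each listed gene that passed the filter, by list (x axis) and comparison (panels), with filled circles for genes called at an adjusted p under 0.05 and a line at the median of each list. FGFBP2, FLRT3 and SULF2 are the 3 filled circles, and the signaling proteins stay between −0.49 and 0.77.

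**Figure D5:**
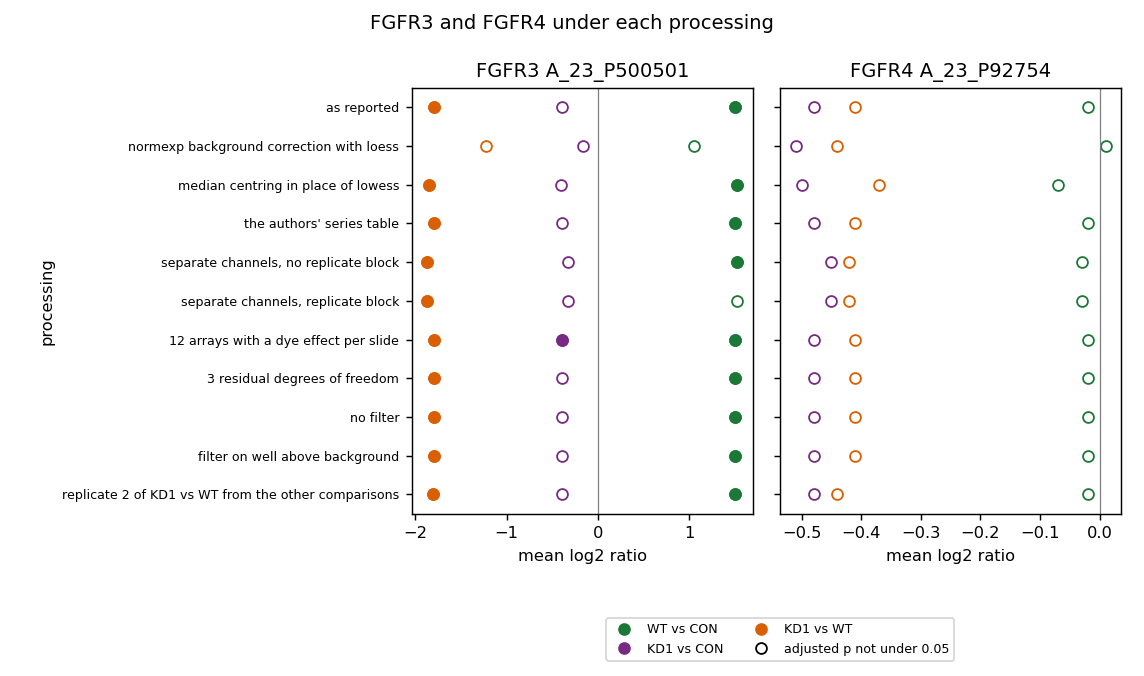
Mean log2 ratio (x axes, with different ranges) of FGFR3 and FGFR4 under the reported and 10 other ways of processing (y axis), filled where the adjusted p was under 0.05. FGFR3 stays between 1.06 and 1.53 for WT over CON and between −1.87 and −1.23 for KD1 over WT, and FGFR4 stays between −0.51 and −0.37 in both KD1 comparisons without a filled point.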

How the data were processed

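Gene expression was measured on 12 two-color arrays. The authors processed the scans with Agilent Feature Extraction (10.5.1.1) and deposited linear intensity values per spot, background-subtracted, detrended and lowess-normalized within the array. The authors also deposited a series table of log2 ratios, used here as an alternative (0 columns left unmatched), and a log10 ratio per spot that was not analysed here. From the processed intensities log2 ratios were computed, without outlier-flagged spots (95 to 188 per array), turned to the first culture over the second and averaged over spots, then within dye-swap pairs. Saturated spots numbered 0.

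limma 3.58.1 (R 4.3.3; lmFit, eBayes) was fitted to 6 replicate values with 1 coefficient per comparison. Since a replicate's comparisons draw on 3 extracts in common, 2 residual degrees of freedom were used. P-values were adjusted by Benjamini-Hochberg over the probes that passed the filter. Signals per extract came from separate channels after Aquantile normalization. Probe positions are those of the files (NCBI36), and RefSeq tables (GRCh38.p14) gave current names and promoters. The script was tested on simulated data. Tables and figures were made in Python 3.11.15 (pandas 2.3.3, numpy 2.4.6, matplotlib 3.10.9, scipy 1.17.1).

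The receptors, lists and tests were chosen with earlier results of these data known. Named were all receptor probes, list genes called or with a mean of at least 1 in size in both KD1 comparisons and one direction on all 8 KD1 arrays, and the 5 genes most similar to each receptor probe. Other genes are said to be chosen later or are markers, neighbors or members of a list with a stated role. WT vs CON had a slide to itself, and the KD1 arrays of a replicate shared a slide, so that slide and replicate cannot be told apart for KD1. Some members of the lists are not reported here by name.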

Additional observations from a re-analysis of the deposited data

How the results depend on the processing

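In all 10 other ways of processing, the tested receptor probes kept their direction except for 2 values near 0: A_23_P301304 in WT vs CON became 0.02 with normexp background correction and loess and 0.06 with median centring, and FGFR4 in WT vs CON became 0.01 with normexp. The number of receptor probes called was 0 with normexp for KD1 over WT and for WT over CON. With a dye effect per slide it was 3 for KD1 over CON and 2 for KD1 over WT. Deviations of extracts with the same replicate number correlated with 0.541 for CON and KD1, but with −0.0211 for WT and CON and −0.0717 for WT and KD1. Each array held extracts of the same number, so the reported ratios and p-values follow this pairing in all 3 comparisons. Separate channels were fitted with and without a replicate block. With separate channels and a replicate block, 0 receptor probes were called in WT vs CON and 167, 110 and 102 probes in all (KD1 vs CON, KD1 vs WT, WT vs CON, in this order throughout). Without the block these were 201, 126 and 114.

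The other counts over all probes, against 393, 261 and 365, were 26, 1 and 2 with normexp, 252, 140 and 182 with median centring, and 3944, 4204 and 4265 with a dye effect per slide. With no filter they were 254, 183 and 200. With 3 residual degrees of freedom KD1 vs WT had 151 and WT vs CON 233. With replicate 2 of KD1 vs WT taken from the other comparisons, an alternative chosen after seeing the data, WT vs CON had 207. Lower values made up 43.3% of the WT vs CON calls and 32.4% with median centring, and 72.8% and 81.4% of the KD1 vs WT calls.

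For the gene lists, the fit with a dye effect per slide counts dye swaps as separate values and called many more probes in all. It gave calls in at least 1 comparison for 2 genes of the ligand list and 4 co-receptors and binding proteins. Likewise 5 heparan sulfate genes, 5 signaling proteins and 12 readout genes were called. The share of all probes called in at least 1 comparison was not computed. The filter on spots well above background gave 1 gene of the ligand list. The co-receptor and binding protein list had 0 calls with normexp, separate channels (with and without the block) and 3 residual degrees of freedom, and 1 with no filter and with the derived replicate. The heparan sulfate list had 0 with normexp, median centring, separate channels (both), 3 residual degrees of freedom, no filter and the derived replicate. The cause of these changes was not tested. Without replicate 1 or without replicate 2 a comparison has 1 value and no test: FGFR3 then had 1.54 and 1.46 for WT over CON and −1.79 and −1.81 for KD1 over WT, and FGFR4 −0.58 and −0.37 for KD1 over CON and −0.24 and −0.58 for KD1 over WT. The filter left FGFR2 probe A_23_P202334 out of the KD1 tests. Its normalized signals were 48.5 and 57.9 in KD1 and 39 to 46 in WT and CON. The filter does not use these but background-subtracted intensities, on which the probe had a mean of 16 over all arrays. The filter limit, set by negative controls on that scale, differed by array. In replicate 1 it reached 40.6 for KD1 vs CON and 20.4 for KD1 vs WT. In replicate 2 it was at most 13 for both. For WT vs CON it was at most 13.1. By the definition of the filter, the probe did not exceed the limit in either channel on at least 1 array of each KD1 comparison. Which arrays these were was not examined. The other FGFR2 probes were well above background in 0 readings.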
